A study of Homo sapiens with 12 samples.

Results

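ICAM1, TNFAIP2, SOD2, LIF, CSF1 and IL32 are 6 genes known to be induced by the cytokine TNFalpha, and they were followed here through the histone mark H3K27ac. They were taken by name, as 6 of 19962 protein-coding genes, and not by a threshold on measured values, with earlier results of these data known. The peaks counted for each gene were those within 1 kb of any of its annotated transcript starts (its promoter peaks) and those within 50 kb of any start.

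The data were CUT&RUN peak lists from HCT116, an established human colorectal cancer cell line of epithelial origin. CUT&RUN cuts and releases DNA around an antibody-bound target inside permeable nuclei, and the antibody here recognised H3K27ac. The 3 groups of 2 replicate libraries were untreated cells, cells given 1 µM Cobimetinib, an inhibitor of the kinase MEK, for 24 h, and cells given 100 ng/mL TNFalpha for 24 h. All libraries came from the same cell line, grown in serum, and the labels name no vehicle in the untreated group. The 6 IgG libraries that the labels also list were not analysed here. The labels number the replicates, and neither they nor the study's methods, which call them replicates of treatment, say that they were separate cultures, so the p-values below measure the spread between these libraries, which may be technical.

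TNFalpha binds a receptor on the cell surface, which releases the transcription factor NF-κB into the nucleus, where it binds short DNA words at promoters and distal enhancers and switches genes on. The same receptor also activates MAP kinases that feed the transcription factor AP1, and MEK sits in one of these kinase cascades. H3K27ac marks nucleosomes at active promoters and enhancers. In bulk cells, fewer marked cells and less mark per cell cannot be told apart.

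The 6 lists held 69813 to 124771 peaks, and each peak carried a score from the peak caller, with a lowest value of 20 in every list. The lists give no read depth, so scores were used only as ranks within a list, where rank 1 is the highest score and tied scores share their mean rank. One library stood apart. Untreated replicate 2 correlated with the other 5 at a Spearman rho of 0.277 to 0.348 over region ranks, whereas the other pairs reached 0.67 to 0.845, and the median width of its 20000 highest peaks was 380 bp against 922 to 1265.5 bp elsewhere. In that library 7102 peaks tied at the score of peak 20000, against 332 to 533 in the others. Of 8 epithelial markers, 7 had a promoter peak in every library and VIL1 had none. Endothelial markers had a peak for 0 or 1 of 4 genes (PECAM1), leukocyte markers for 0 to 2 of 5 and fibroblast markers for 1 to 3 of 4, with COL1A1 marked in every library. No library had a promoter peak at CDH5, VWF, KDR, CD14, SPI1 or DCN.

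Promoter sequences of 2 members, ICAM1 and IL32, are shown, the first as the window at the main start of ICAM1, where the groups overlapped, and the second as the only member window with an NF-κB word, and the words searched in them are those that NF-κB and AP1 are known to bind. RefSeq windows of 300 bases, from 250 before to 50 after a start, were found for ICAM1, TNFAIP2, SOD2 and IL32, in 8 windows. The NF-κB consensus word of 10 letters was searched on both strands, and the AP1 word was TGACTCA or TGAGTCA, each of which reads as the other on the opposite strand. One of the 8 windows, at IL32, held an NF-κB word, and none held an AP1 word. Over all 35116 windows in the table, 5.91% held the NF-κB word and 4.95% held the AP1 word. The ICAM1 window (GRCh38.p14, chr19:10270870-10271169, plus strand) held neither word. Only exact matches were counted, so NF-κB sites that depart from the consensus would be missed, here and in the other sequences. The best ICAM1 promoter peak lay outside this window. In 5 of the 6 libraries it overlapped the region at the internal starts (chr19:10283055-10283843). That region held 2 NF-κB matches, where 14.7% of regions of like width (within 10%) held at least 1. The IL32 window (chr16:3065153-3065452, plus strand) has its 2 overlapping NF-κB matches, which read on opposite strands, in capitals.
ICAM1 promoter: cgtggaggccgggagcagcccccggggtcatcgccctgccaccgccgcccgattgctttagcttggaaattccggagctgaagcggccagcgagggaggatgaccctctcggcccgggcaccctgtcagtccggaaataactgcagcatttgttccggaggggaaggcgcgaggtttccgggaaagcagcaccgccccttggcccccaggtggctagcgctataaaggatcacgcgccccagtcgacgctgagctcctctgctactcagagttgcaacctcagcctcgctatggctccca
IL32 promoter: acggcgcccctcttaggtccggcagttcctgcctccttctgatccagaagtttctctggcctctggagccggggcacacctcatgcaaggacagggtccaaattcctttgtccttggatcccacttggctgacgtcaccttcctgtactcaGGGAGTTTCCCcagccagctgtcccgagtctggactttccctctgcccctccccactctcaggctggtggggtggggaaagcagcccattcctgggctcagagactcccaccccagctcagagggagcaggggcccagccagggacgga

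Distal sequences are shown for 5 of the 8 regions described below in which both TNFalpha libraries ranked above the other 4. Each line gives at most 300 bases of the plus strand of hg38, with NF-κB and AP1 words in capitals. The ICAM1 stretch (chr19:10260045-10260344, in MRPL4) held an NF-κB word and an AP1 word whose first bases lay 49 bp apart. The LIF stretch (chr22:30226464-30226763, between genes) held both words 28 bp apart. The CSF1 stretch (chr1:109892611-109892910, between genes) held 3 NF-κB matches, of which 2 overlap.
ICAM1 region: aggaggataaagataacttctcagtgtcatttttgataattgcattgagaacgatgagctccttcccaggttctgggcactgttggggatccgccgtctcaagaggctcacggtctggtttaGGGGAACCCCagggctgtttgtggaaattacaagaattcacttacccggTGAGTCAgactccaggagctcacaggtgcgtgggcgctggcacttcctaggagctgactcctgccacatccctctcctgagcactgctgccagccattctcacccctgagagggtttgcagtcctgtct
LIF region: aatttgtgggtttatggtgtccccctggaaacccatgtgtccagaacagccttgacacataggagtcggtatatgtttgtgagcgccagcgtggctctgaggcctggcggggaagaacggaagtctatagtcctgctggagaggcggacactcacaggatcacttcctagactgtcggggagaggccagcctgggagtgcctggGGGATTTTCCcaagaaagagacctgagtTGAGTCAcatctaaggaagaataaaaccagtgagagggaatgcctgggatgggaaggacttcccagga
CSF1 region: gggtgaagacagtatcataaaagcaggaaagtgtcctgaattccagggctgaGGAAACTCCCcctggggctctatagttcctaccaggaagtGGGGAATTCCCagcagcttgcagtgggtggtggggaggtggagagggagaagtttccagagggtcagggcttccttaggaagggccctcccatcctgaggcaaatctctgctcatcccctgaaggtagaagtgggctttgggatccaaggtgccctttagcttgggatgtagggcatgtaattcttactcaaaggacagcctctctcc
The remaining pair lies in introns of long SOD2 transcripts. The first (chr6:159701618-159701917) held 2 AP1 words, and the second (chr6:159758606-159758905), the middle of a peak found only in the TNFalpha lists, held neither word.
SOD2 region with AP1 words: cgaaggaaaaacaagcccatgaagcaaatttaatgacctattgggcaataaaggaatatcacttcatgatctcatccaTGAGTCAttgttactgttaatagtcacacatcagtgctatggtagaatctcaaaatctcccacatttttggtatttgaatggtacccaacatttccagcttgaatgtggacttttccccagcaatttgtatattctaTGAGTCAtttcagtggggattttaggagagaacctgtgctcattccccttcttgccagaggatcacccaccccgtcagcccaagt
SOD2 region found only with TNFalpha: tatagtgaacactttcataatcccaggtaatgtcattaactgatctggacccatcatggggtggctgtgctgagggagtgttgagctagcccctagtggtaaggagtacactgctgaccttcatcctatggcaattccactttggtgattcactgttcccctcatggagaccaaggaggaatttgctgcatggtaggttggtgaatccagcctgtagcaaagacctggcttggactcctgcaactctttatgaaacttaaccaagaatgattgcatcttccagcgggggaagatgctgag

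The first question was whether the mark at the promoters moved with either treatment. ICAM1 encodes an adhesion molecule that leukocytes grip through the integrin LFA-1. The ranks of its best promoter peak were 21910 and 47866 untreated, 8304 and 21422 with Cobimetinib, and 14847 and 15081 with TNFalpha. Both treatments ranked above untreated in every library, but for Cobimetinib by a small margin (21422 against 21910). As a percentage of list length that order reversed, at 30.7% in Cobimetinib replicate 2 and 25.2% in untreated replicate 1. These peaks lay at internal starts, close to the last annotated start at 10283282, which is over 12 kb downstream of the main one (the MANE Select start, chr19:10271120, plus strand). At the MANE Select start itself the peak ranked 29875.5 in untreated replicate 1 and was missing in replicate 2, ranked 18655 and 36157 with Cobimetinib, and ranked 51706 and 20866 with TNFalpha, so there the TNFalpha and untreated libraries overlapped. The best peak was 979 and 526 bp wide in the untreated libraries and 351 and 371 bp wide with TNFalpha, narrower without overlap, while its rank was higher. However, the best peak of untreated replicate 2 (chr19:10283921-10284446) did not overlap the TNFalpha peaks. Only untreated replicate 1 therefore gave a width at the same place.

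TNFAIP2 encodes a cytoplasmic protein first found through its induction by TNF. Its best promoter peak ranked 9097.5 and 13195.5 untreated, 4756 and 6744 with Cobimetinib, and 10897 and 15725.5 with TNFalpha. The Cobimetinib libraries ranked above both other groups, and the TNFalpha libraries overlapped the untreated ones. This peak lay at the last annotated start (chr14:103136403). At the MANE Select start (chr14:103123461, plus strand) the ranks were 22702 and 39474.5 untreated, 14953 and 15062.5 with Cobimetinib, and 13352.5 and 22018 with TNFalpha, so that both treatments ranked above untreated there.

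SOD2 encodes the manganese superoxide dismutase of mitochondria. At its MANE Select start (chr6:159693241, minus strand) the peak ranked 14067 and 9918.5 untreated, 2111 and 2922.5 with Cobimetinib, and 11754 and 5110 with TNFalpha. The Cobimetinib libraries ranked above all 4 others, and the TNFalpha libraries overlapped the untreated ones. Over all starts the best ranks were 1706 and 8297 untreated, 2111 and 2922.5 with Cobimetinib, and 4396 and 3311 with TNFalpha. Outside the Cobimetinib libraries these best peaks lay at an upstream start of SOD2 within 1 kb of starts of WTAP, so they cannot be assigned to SOD2 alone.

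LIF and CSF1 encode secreted factors. LIF, a cytokine of the interleukin-6 family, had no promoter peak in either untreated library or in TNFalpha replicate 1. Its promoter peak ranked 44971 and 30658 with Cobimetinib and 62410 in TNFalpha replicate 2, all below rank 20000. CSF1, the growth factor of macrophages, had 1 promoter peak in every library, ranked 24358 and 62095 untreated, 19047 and 24638.5 with Cobimetinib, and 20108.5 and 50791.5 with TNFalpha, and the 3 groups overlapped.

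IL32 encodes an inflammatory cytokine. Near its MANE Select start (chr16:3065640, plus strand) the peak ranked 41688.5 and 75834.5 untreated, 73216.5 and 46531.5 with Cobimetinib, and 21200.5 and 36059 with TNFalpha. The TNFalpha libraries ranked above all 4 others, although every one of these peaks lay below rank 20000. The peak was 640 and 245 bp wide untreated, 250 and 215 bp with Cobimetinib, and 645 and 779 bp with TNFalpha. Over all starts Cobimetinib replicate 1 also held a peak of 502 bp at rank 261.5, downstream of the last start, that no other library had.

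**Figure D1:**
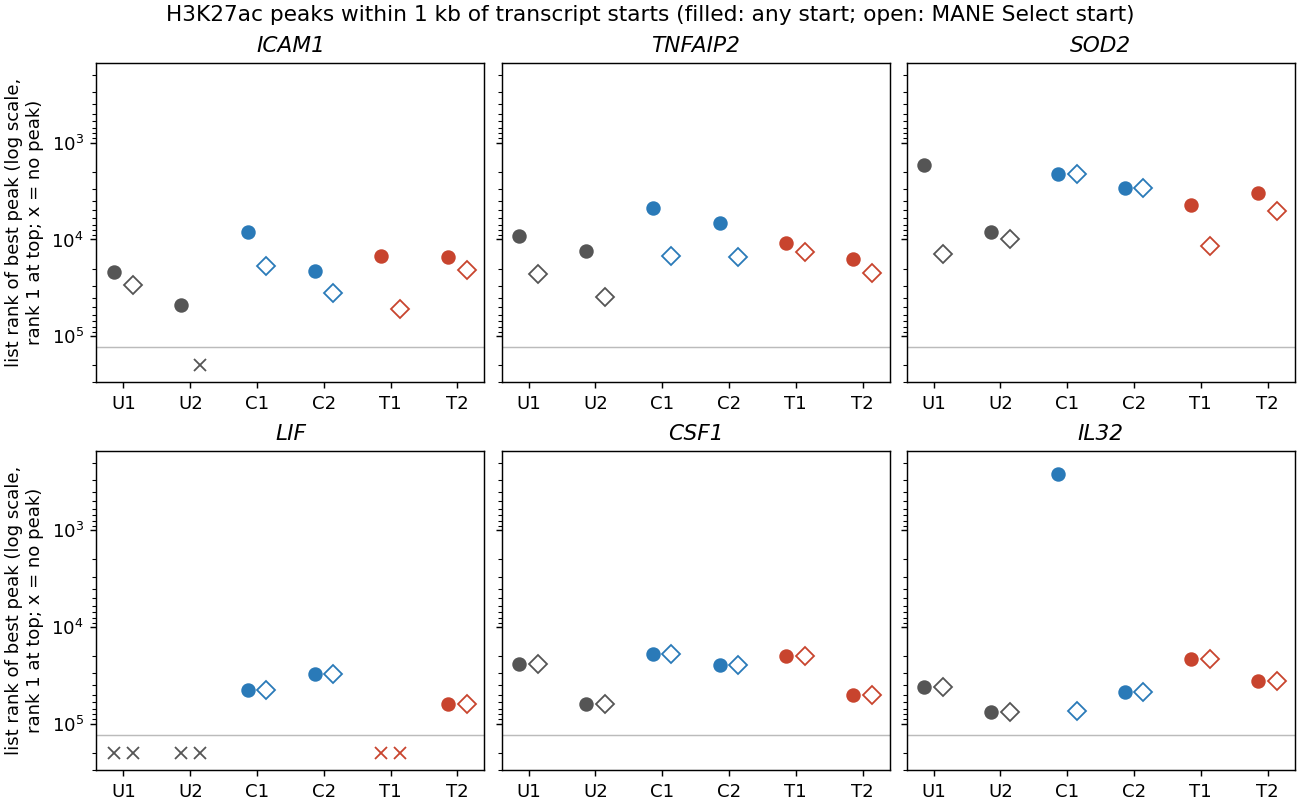
Rank in its list of the best H3K27ac peak within 1 kb of a start of each gene (y axis, logarithmic, rank 1 at the top) in untreated (U1, U2, grey), Cobimetinib (C1, C2, blue) and TNFalpha (T1, T2, red) libraries; filled circles take any start, open diamonds the MANE Select start, and a cross means no peak. The open red diamonds stand above all 4 others at IL32, the blue diamonds above all 4 others at SOD2, and LIF has no peak in 3 libraries.

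Counted over the members, the best promoter peak ranked above both untreated libraries in both TNFalpha libraries for 2 of 6 genes (ICAM1 and IL32) and below for 0, beside 11.4% and 13.2% of the 14907 genes with a promoter peak. With Cobimetinib it ranked above untreated for 3 (ICAM1, TNFAIP2 and LIF) and below for 0, beside 18.9% and 11.2%. TNFalpha ranked above Cobimetinib for 0 and below for 3 (TNFAIP2, SOD2 and LIF), beside 13.7% and 25%. With the MANE Select start alone, TNFalpha ranked above untreated for 2 (TNFAIP2 and IL32), beside 11.1%, and Cobimetinib for 3 (TNFAIP2, SOD2 and LIF), beside 19.3%. With that start TNFAIP2 took the place of ICAM1 for TNFalpha, and SOD2 took it for Cobimetinib. Without untreated replicate 2, the library that stood apart, TNFalpha also ranked below untreated for 2 genes (TNFAIP2 and SOD2), where 46.2% of all genes did so. In width of the best promoter peak, a missing peak counted as narrowest. IL32 was wider with TNFalpha than untreated and ICAM1 narrower, beside 5.78% and 3.2% of genes. LIF counted as wider with Cobimetinib and SOD2 as narrower, beside 10.2% and 3.21%. For LIF this meant only that neither untreated library had a peak. The best SOD2 peaks lay at different starts in these 2 groups. At the MANE Select start the SOD2 widths overlapped, at 1863 and 298 bp untreated and 787 and 761 bp with Cobimetinib. For ICAM1, the peak of untreated replicate 2 lay apart from the TNFalpha peaks. A single gene compared as 2 libraries against 2 cannot reach an exact two-sided permutation p below 0.333, so these placements are a description.

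The genes with the most similar promoter ranks, by the smallest largest difference in log2 rank over the 6 libraries, were BLTP2 (0.37) and AKTIP (0.38) for ICAM1, AGAP3 (0.27) and STK36 (0.35) for TNFAIP2, TOM1L2 (0.50) and MED15 (0.52) for SOD2, and CC2D2B (0.29) and TRIM35 (0.33) for CSF1. For IL32 the closest were RPLP1 (1.06) and RNF126 (2.30). LIF could be compared only over the 3 libraries with a peak and with 12 genes present in the same 3, of which ATP6V1C2 (0.18) and AFAP1L2 (0.36) were closest.

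The second question was whether the surroundings of the genes moved where the promoters did not. Within 50 kb, LIF had 15 and 16 peaks untreated, 17 and 18 with Cobimetinib, and 17 and 21 with TNFalpha, where the median gene had 6 to 9. CSF1 had the fewest of the 6 genes in every library, with 9 and 3, 4 and 1, and 7 and 3 in the same order. ICAM1 had 11 to 15, TNFAIP2 8 to 18, SOD2 12 to 18 and IL32 10 to 18. The lists differed in length, so these numbers were not compared between groups.

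**Figure D2:**
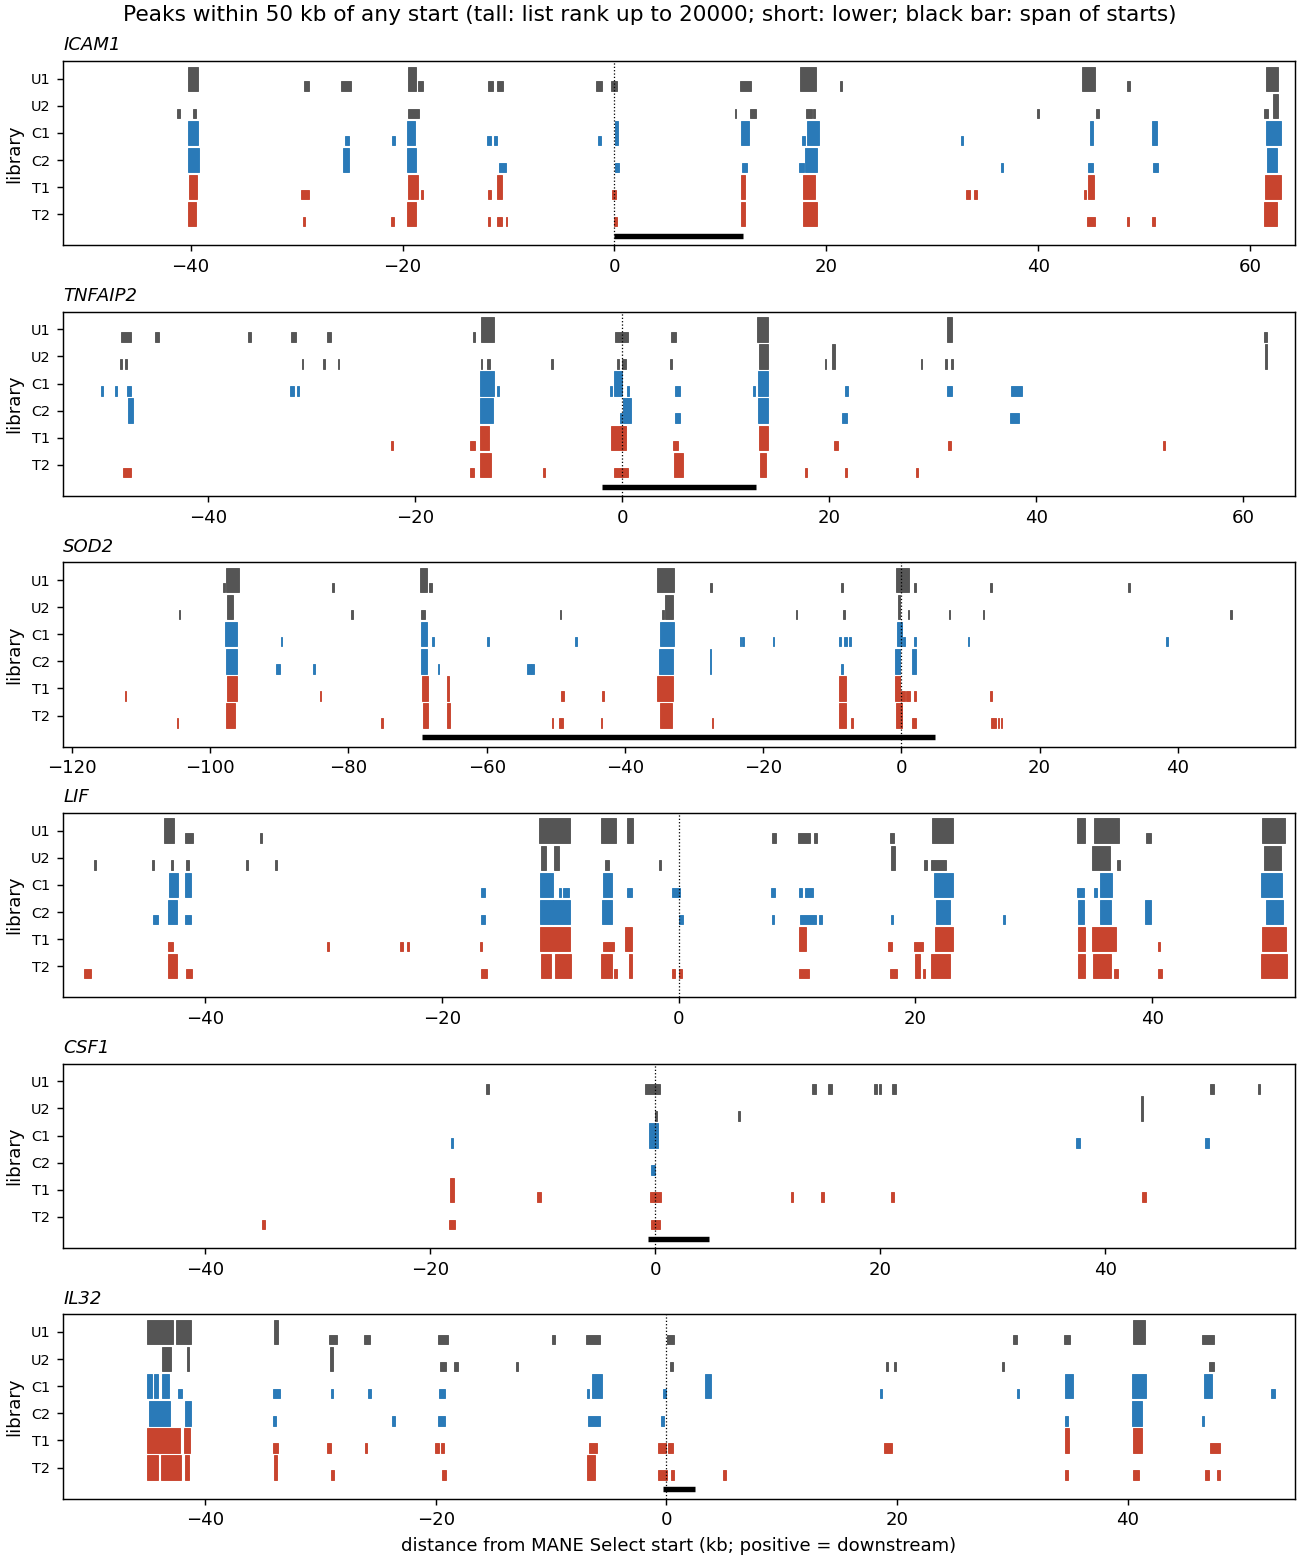
Peaks within 50 kb of any start of each gene, by library (rows: U untreated, C Cobimetinib, T TNFalpha), against distance from the MANE Select start in kb with downstream positive; tall bars are peaks of rank up to 20000, short bars lower ranks, and the black bar spans the annotated starts. The tall bars stand at the same distances in most libraries, and CSF1 has the fewest of them.

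To compare the same stretches across libraries, the 20000 highest peaks of each list were merged into 38598 regions, and each region was ranked in each library by its best peak. Of these, 50 lay within 50 kb of a member, 13 of them at LIF, 10 at ICAM1, 8 each at TNFAIP2, SOD2 and IL32, and 3 at CSF1. Of the 50, 25 overlapped an exon of a protein-coding gene, 5 lay in introns only and 20 between genes. A start of the member itself was the closest start for 25 of the 50, so the other 25 lay closer to a neighbour. A peak was present in all 6 lists at 21 regions.

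A log2 rank gain is the difference between 2 groups in mean log2 region rank, positive where the first group ranked higher. With limma over all 38598 regions, 0 of the 50 member regions passed an adjusted p of 0.05 in any of the 3 comparisons. For TNFalpha against untreated, 67 regions in all were called higher (0.174%) and 1 lower (0.00259%), for Cobimetinib against untreated 32 higher (0.0829%) and 1 lower (0.00259%), and for TNFalpha against Cobimetinib 346 higher (0.896%) and 117 lower (0.303%). At an unadjusted p under 0.05, member regions numbered 3 higher and 0 lower in the first comparison, where 4.79% and 3.43% of all regions passed, 3 and 0 in the second, beside 6.16% and 4.74%, and 3 and 3 in the third, beside 6.41% and 5.36%. The lowest adjusted p among member regions was 0.203, 0.256 and 0.0801 in the same order. The median gain over the 50 regions was 0.28 for TNFalpha against untreated, 0.33 for Cobimetinib against untreated and -0.03 for TNFalpha against Cobimetinib, beside -0.02, -0.01 and 0.00 over all regions. Without untreated replicate 2 the first and second medians were 0.02 and 0.06, beside 0.02 in both over all regions, so the larger values rested on that library.

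By position alone, TNFalpha ranked above untreated without overlap at 13 of the 50 regions and below at 3, beside 17.9% and 9.83% of all regions. Cobimetinib ranked above untreated at 14 and below at 7, beside 20.3% and 11.8%. TNFalpha ranked above Cobimetinib at 14 and below at 9, beside 20.4% and 21.7%. Without untreated replicate 2 the lower counts against untreated rose to 15 for TNFalpha and 13 for Cobimetinib, where 30.8% and 30.4% of all regions were then lower. Without Cobimetinib replicate 1 the Cobimetinib regions above untreated numbered 22, where 30.7% of all regions were.

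**Figure D3:**
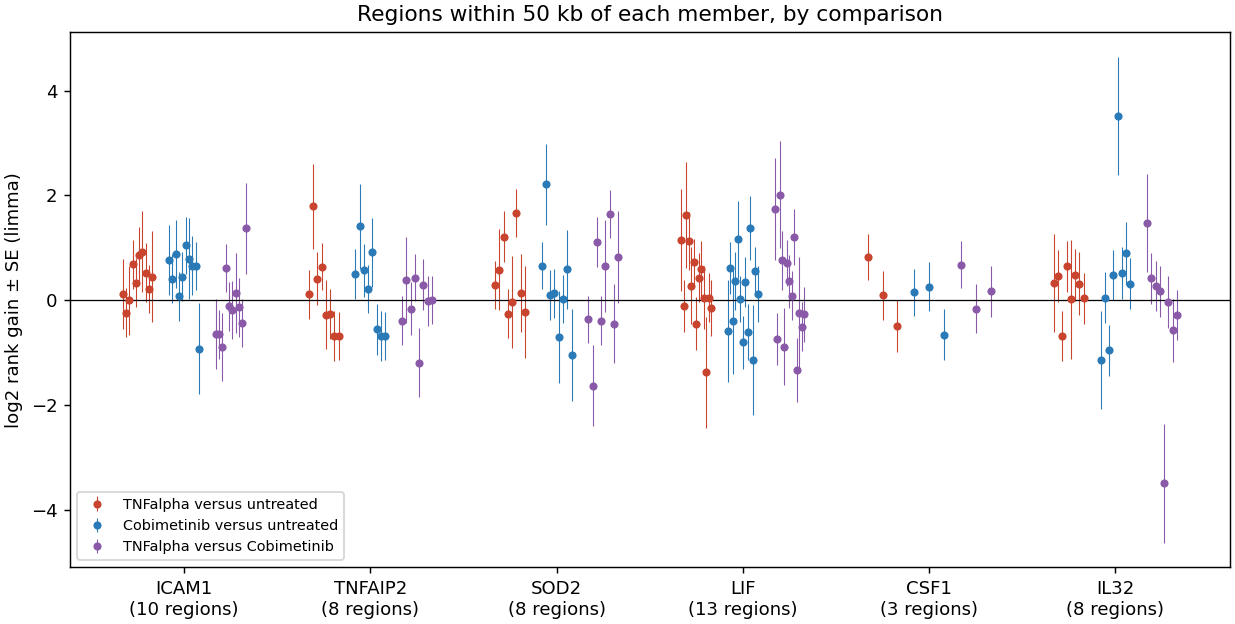
Log2 rank gain with its standard error from limma (y axis) for each of the 50 regions, grouped by member (x axis) and drawn from left to right by position, for TNFalpha against untreated (red), Cobimetinib against untreated (blue) and TNFalpha against Cobimetinib (purple). No region passed an adjusted p of 0.05, and the outlying IL32 point is the peak of Cobimetinib replicate 1 alone.

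Both TNFalpha libraries ranked above all 4 others at 8 of the 50 regions, beside 10.6% of all regions, and both Cobimetinib libraries did so at 5, beside 13.0%. The 8 belonged to 5 of the members, and IL32 had none. A peak in both TNFalpha lists and in none of the other 4 was found at 2 of the 50, beside 0.93% of all regions. The rule behind these counts was chosen after the ranks were seen. Of the 8, only LIF chr22:30209591-30211871 and TNFAIP2 chr14:103109704-103111062 had a peak of list rank up to 20000 outside the TNFalpha lists. The others entered the 50 regions, and got their boundaries, only through a TNFalpha list, the group in which they ranked high. Their gains and p-values below therefore describe regions picked partly for that outcome and are not an independent test of it.

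SOD2 held 2 of the 8. The region at chr6:159758503-159759009, in an intron 3520 bp from an upstream SOD2 start and 3036 bp from a start of ACAT2, had a peak at list rank 11754 in TNFalpha replicate 1 and 9796 in replicate 2 and none in the other 4 lists. Its gain was 1.66 ± 0.46 (SE, 2 libraries per group) over untreated with a limma adjusted p of 0.203, and 1.64 ± 0.46 over Cobimetinib with an adjusted p of 0.0801. It was the member region with the lowest adjusted p in the comparison with untreated. The region at chr6:159701247-159702308, 7969 bp upstream of the nearest SOD2 start, ranked 74760.5 and 62095 untreated, 37131.5 and 42501 with Cobimetinib, and 11754 and 11465 with TNFalpha. Its peak was 329 and 244 bp wide untreated, 371 and 186 bp with Cobimetinib, and 1061 and 1043 bp with TNFalpha, so the TNFalpha peaks were also the widest. The gain over untreated was 1.21 ± 0.48 with an adjusted p of 0.522. Its 2 AP1 words are in the SOD2 sequence printed first above, and 46.9% of regions of like width (within 10%) held an AP1 word.

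LIF also held 2. Its region at chr22:30209591-30211871, between genes and 34868 bp downstream of the start, was among the strongest near any member, with list ranks of 2063 and 2725.5 untreated, 3882 and 2483.5 with Cobimetinib, and 1375 and 426 with TNFalpha. The gain was 1.62 ± 1.01 over untreated with an adjusted p of 0.704. The weaker region at chr22:30226395-30226763, 19976 bp downstream of the start, had peaks only with TNFalpha, at ranks 24212.5 and 19779. This is the LIF stretch printed above with both words. Of regions of like width, 5.82% held an NF-κB word and 13.6% an AP1 word.

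The CSF1 region at chr1:109892611-109893019, 17223 bp upstream of the nearest start, ranked 18596.5 and 20866 with TNFalpha, had a peak at rank 92063 in Cobimetinib replicate 1, and had none in the other 3 lists. It held NF-κB matches, as did 5.95% of regions of like width. The ICAM1 region at chr19:10260026-10260475, 10618 bp upstream of the nearest ICAM1 start and overlapping an exon of MRPL4, ranked 15449.5 and 28317.5 with TNFalpha, 38594.5 in untreated replicate 1 and 31450.5 in Cobimetinib replicate 2, and had no peak in the other 2 lists. Its gain over untreated was 0.69 ± 0.47 with an adjusted p of 0.704, and 6.52% and 21.2% of regions of like width held an NF-κB and an AP1 word.

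TNFAIP2 held the last 2. The region at chr14:103109704-103111062, 10414 bp upstream of a TNFAIP2 start and closer to EXOC3L4, ranked 5790.5 and 91529 untreated, 4278 and 5141.5 with Cobimetinib, and 3708.5 and 3463.5 with TNFalpha. The gain over untreated, 1.79 ± 0.82, was the largest in that comparison and had an adjusted p of 0.605, and untreated replicate 2 lay far below replicate 1 here. The intronic region at chr14:103128505-103129362 ranked 45190.5 in untreated replicate 1, had no peak in untreated replicate 2, and ranked 44971 and 55658.5 with Cobimetinib and 22336.5 and 18338.5 with TNFalpha. Each of these regions held 1 AP1 word. Over the 8 regions, 3 held an NF-κB word and 6 an AP1 word, beside 15.9% and 32.3% of all regions, with no test of either. Over all 50 member regions, 14 (28%) held an NF-κB word and 16 (32%) an AP1 word. Most member regions with an NF-κB word were therefore not among the 8.

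**Figure D4:**
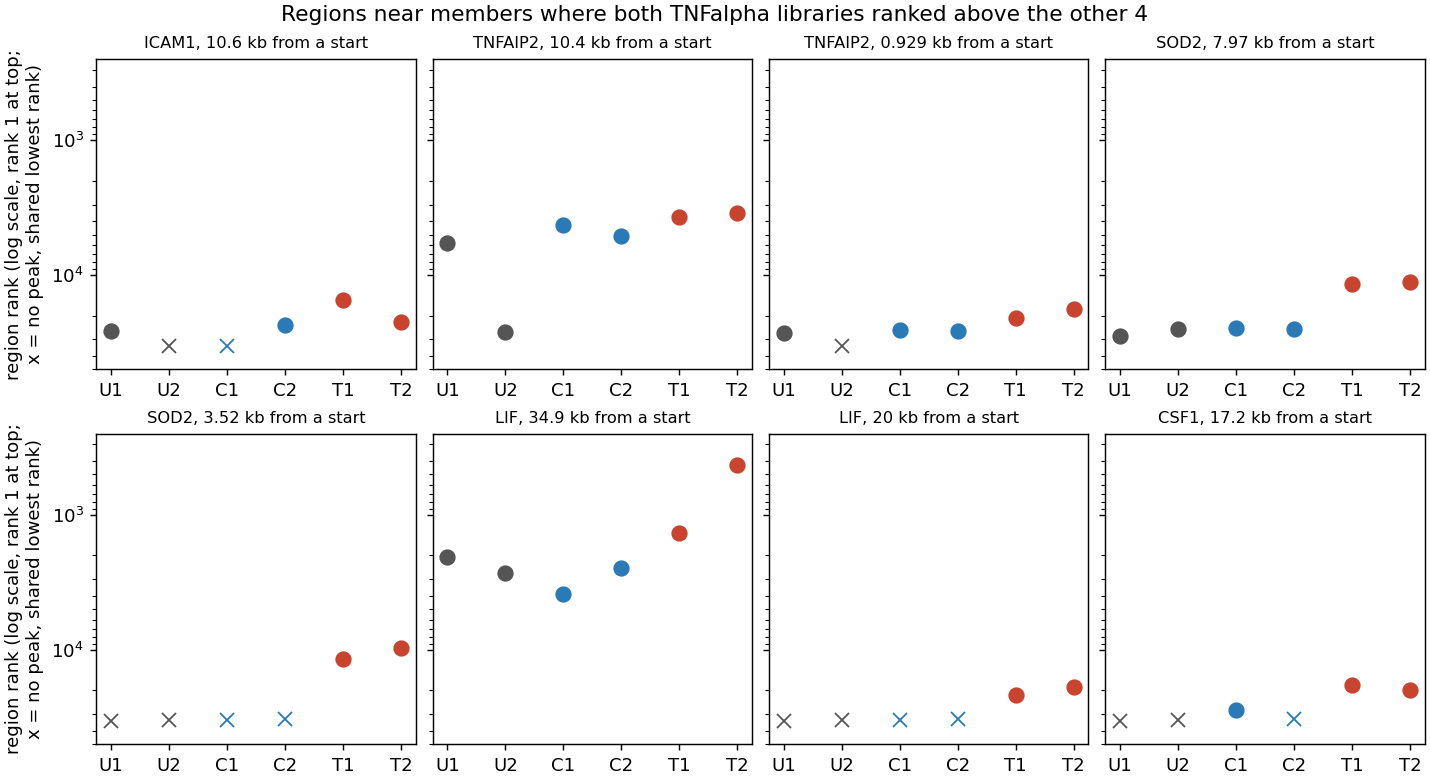
Region rank among all 38598 regions (y axis, logarithmic, rank 1 at the top) in each library (U untreated, C Cobimetinib, T TNFalpha) for the 8 regions where both TNFalpha libraries ranked above the other 4, titled by gene and distance to its nearest start; a cross means no peak. The SOD2 region 3.52 kb from a start and the LIF region 19976 bp from one have crosses in all 4 other libraries.

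Among member regions with a peak in both Cobimetinib libraries, the largest gain over untreated was at the SOD2 promoter region (chr6:159692146-159694130), at 2.21 ± 0.77 with an adjusted p of 0.299, and its gain for TNFalpha against Cobimetinib was -1.63 ± 0.77 with an adjusted p of 0.407. The largest Cobimetinib gain near any member, 3.52 ± 1.13 at IL32 (chr16:3068962-3069463), with an adjusted p of 0.256, rested on the peak of Cobimetinib replicate 1 alone, as no other library had a peak there. The strongest region near IL32 by mean rank, chr16:3020545-3024425, overlapped exons of TNFRSF12A, HCFC1R1 and THOC6 and ranked 1325.5 and 4125.5 untreated, 4756 and 5611 with Cobimetinib, and 1838.5 and 1865.5 with TNFalpha, lowest with Cobimetinib.

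The other strongest regions near the members belonged to neighbours or were shared by all groups. Near ICAM1 these were chr19:10332438-10333996, at RAVER1 and ICAM3, with ranks of 3681.5 and 4125.5 untreated, 9656.5 and 5690 with Cobimetinib, and 5457.5 and 1481.5 with TNFalpha, and chr19:10288655-10290416, at ICAM5. Near SOD2 they were chr6:159789115-159791060 at TCP1 and MRPL18, and chr6:159726084-159728540, which overlaps exons of both SOD2 and WTAP. Near LIF, chr22:30255876-30258538 ranked 1605.5 and 672.5 untreated, 2475 and 2123 with Cobimetinib, and 6475.5 and 1129.5 with TNFalpha, with TNFalpha replicate 1 below both untreated libraries and replicate 2 between them.

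Beside the members, a list of 25 other genes known to be induced by TNF through NF-κB was followed, of which 21 had a promoter peak. At 10 of them TNFalpha ranked above untreated without overlap and at 1 below, BCL3, a nuclear IκB protein, beside 11.4% and 13.2% of all genes. The 10 were TNIP1, BIRC3, RELB, IRF1, PLAU, NFKB1, NFKBIA, CXCL1, TRAF1 and ZC3H12A. TNIP1, an adaptor of the deubiquitinase A20 that dampens NF-κB, had promoter ranks of 17850.5 and 13195.5 untreated, 7009 and 18249 with Cobimetinib, and 2563 and 1256 with TNFalpha. Among genes with a peak in all 4 libraries, the median gain of TNFalpha over untreated was 0.94 on 12 genes of the list, 0.28 on 5 members and 0.11 over all genes. The largest gains were 3.10 at TNIP1, 2.64 at BIRC3, an inhibitor of apoptosis, 2.11 at RELB, an NF-κB subunit, 1.60 at the transcription factor IRF1 and 1.22 at the protease gene PLAU. Against Cobimetinib, TNFalpha ranked above at 9 of the list and below at 0, beside 13.7% and 25%.

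Among regions within 50 kb, limma called a region higher with TNFalpha than with Cobimetinib for 2 of the 25 genes and 0 of the 6 members, where 2.05% of protein-coding genes had one. These were TNIP1 (chr5:151092823-151094835, at a start, gain 2.16, adjusted p 0.0279) and the chemokine CCL20 (chr2:227817452-227818995, gain 3.02, adjusted p 0.0397). One gene, NFKB2, had a region called lower, 25308 bp away (chr10:102367441-102368802, gain -3.09, adjusted p 0.0382), where 0.902% of genes did, although its promoter peak ranked higher with TNFalpha than with Cobimetinib. With only the 4 libraries of this comparison, limma called 0 of the 38598 regions higher and 0 lower. The calls at TNIP1, CCL20 and NFKB2 therefore depended on a spread that also took in the untreated libraries. Of 9 receptors or partners of the members' products, 8 had a promoter peak, TNFalpha ranked above untreated at 2 and below at 2, beside 11.4% and 13.2%, and limma called no region near them. Of 12 genes induced by MAPK signalling, all with a promoter peak, TNFalpha ranked above untreated at 3 and below at 2, beside the same shares, and Cobimetinib above at 4 and below at 3, beside 18.9% and 11.2%. With Cobimetinib the 4 above were DUSP4, FOSL1, CCND1 and SPRED1, and the 3 below were DUSP6, SPRY4 and PHLDA1. These genes were named after their values were seen. SPRY4, a feedback inhibitor of that pathway, ranked 3373.5 and 2320.5 untreated, 16100 and 17073.5 with Cobimetinib, and 2262 and 3641 with TNFalpha.

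**Figure D5:**
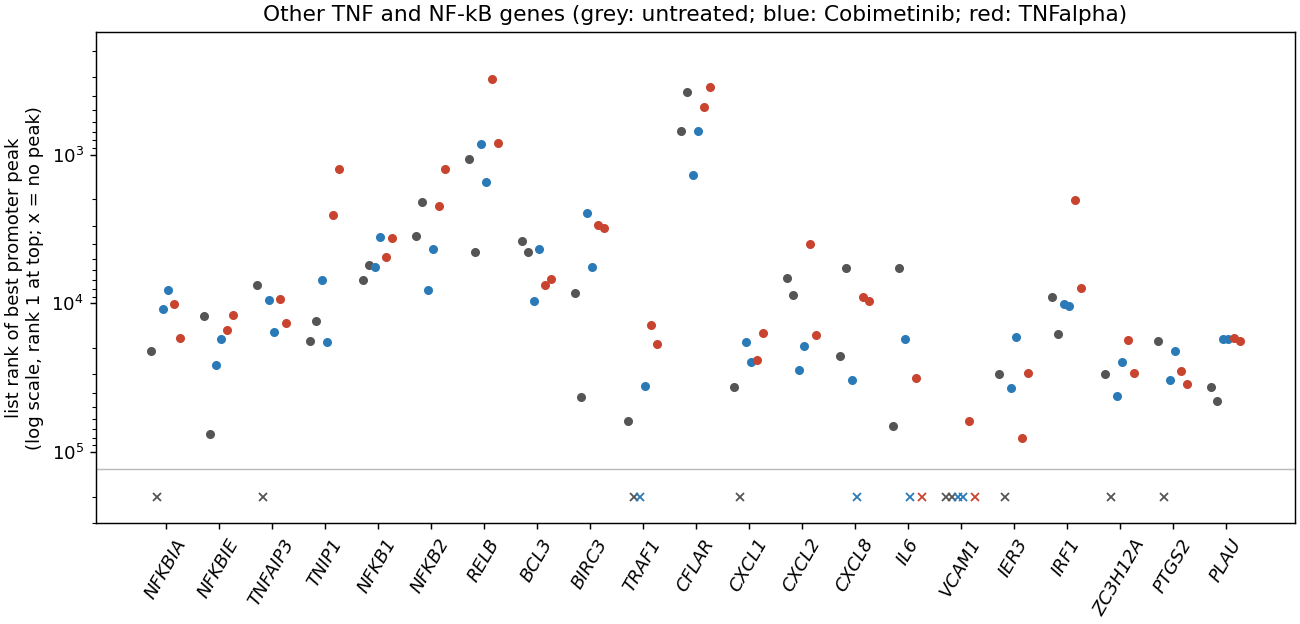
List rank of the best promoter peak (y axis, logarithmic, rank 1 at the top) of the 21 listed TNF and NF-κB genes with a promoter peak, for untreated (grey), Cobimetinib (blue) and TNFalpha (red) libraries, with a cross for no peak. The red points of TNIP1 and RELB lie above the 4 others.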

How the data were processed

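H3K27ac CUT&RUN was performed on HCT116 cells in 3 groups of 2 libraries. The authors used BBDuk for trimming, mapped to hg38 using BWA (0.7.15) and kept reads with a unique position, and peaks were called with MACS2 (2.1.1) without a background library, in paired-end and single-end mode, and merged. The score column of the deposited lists is the value the authors kept from MACS2, and it was used here only as a rank within a list. The lists hold no read counts, so the study's DESeq2 test on counts could not be repeated.

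Transcript starts came from GENCODE release 44, and no peak lay beyond the end of an hg38 chromosome. The 20000 highest peaks of each list were merged within 100 bp. Differences in -log2 region rank were tested with limma (3.58.1, R 4.3.3) over all 6 libraries with Benjamini-Hochberg adjustment at 0.05 over all regions. limma drew the spread of each region toward that of regions of like mean rank, with 21.4 prior against 3 residual degrees of freedom. The SE and p-values therefore rest more on those regions than on the region's own replicates. A region with no peak took the shared lowest rank of that library. The comparisons with untreated share those libraries. The fit was tested on simulated data. Promoter sequences came from RefSeq (GRCh38.p14), and all 8 member windows equal hg38. All 6 genes were named, with, for each, the 2 regions of best mean rank, the 2 genes of most similar promoter rank, and listed genes past the threshold or, in the TNF list, up to 5 of largest gain. The genes and lists were chosen with earlier results of these data known. Each library was left out in turn, and other windows, peak numbers and scales were tried.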

Additional observations from a re-analysis of the deposited data

How the results depend on the processing

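Of 124 alternative values of 20 counts, 104 stayed within 1.5 times the reported count and 20 did not. A 0 beside a reported 0 was taken as within, which was so for most alternatives of the limma counts, all reported as 0. Leaving out 1 library at a time, the called member regions numbered 0 to 5 (TNFalpha higher than untreated), 0 to 2 (lower), 0 to 1 (Cobimetinib higher) and 0 to 3 (lower). All of these calls came without untreated replicate 1. That fit leaves untreated replicate 2, the library that stood apart, alone in its group, assumed to vary like the others. In it 2.83% and 20% of all regions were called higher and lower with TNFalpha, and 3.36% and 20.7% with Cobimetinib. The 5 were at CSF1, TNFAIP2 (2), LIF and SOD2, the TNFalpha-side regions described. With 40000 peaks a list, 1 of 78 member regions was called higher with Cobimetinib than untreated, beside 0.153% of 104903 regions. Another call, 1 lower with TNFalpha than Cobimetinib, stood beside 0.16%. Both were the IL32 peak of Cobimetinib replicate 1. The other region alternatives gave 0 member calls apart from the block below. TNFalpha above Cobimetinib was called at 0.462% of all regions with 10000 peaks a list. It was called at 0.658% with normalized log2 scores and at 0.676% of regions with a peak in all 6 lists. With only the 4 libraries of a contrast, 0 of all regions were called, so 0 member calls there say nothing about the members. The same goes for 0 counts from fits that left 1 library alone in its group. Regions tied at the lowest rank have no spread, which lowers their p.

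The labels do not say whether libraries with the same replicate number were processed together. The replicate differences of the groups correlated weakly, at 0.0484 to 0.123, which does not settle this. With the replicate number as a block, 1 region was called higher with Cobimetinib than untreated (IL32), 1 higher with TNFalpha than Cobimetinib (SOD2, chr6:159758503) and 1 lower (IL32), beside 0.883%, 1.84% and 0.966% of all regions.

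Ranked among promoters only, TNFalpha was above untreated at 1 member (ICAM1) and below at 1 (TNFAIP2), and below Cobimetinib at 1 (TNFAIP2), beside 14.8%, 13.5% and 19.4% of genes. On that scale Cobimetinib was above untreated at 2 members (TNFAIP2 and LIF) and no longer at ICAM1, beside 17.7%. TNFalpha was above Cobimetinib at 1 (IL32) with a 500 bp window and at 1 with the MANE Select start, beside 13.8% and 13.1%. Without untreated replicate 2, members below untreated were 2 for TNFalpha and 1 for Cobimetinib, beside 46.2% and 38.1%. The region counts, for which libraries were left out after seeing the data, ranged over 15 (TNFalpha lower than untreated, without untreated replicate 2, beside 30.8%), 16 to 22 (Cobimetinib higher, beside 25.9% and 30.7%), 8 to 13 (lower, beside 17.7% and 30.4%) and 5 to 10 (Cobimetinib above the other 4, beside 15.3% and 22.2%). Without that library the median gains against untreated fell to near those of all regions. The cause of these changes was not tested. With 2 libraries a group and unknown read depth, small differences in rank are not detectable here.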
